A study of Mus musculus with 6 samples.

Results

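Cd53 and 8 related tetraspanin genes were followed in haematopoietic stem cells (HSCs) of obese db/db mice and WT littermates. The 9 genes, Cd53, Cd9, Cd37, Cd63, Cd81, Cd82, Cd151, Tspan3 and Tspan32, were chosen by symbol from the 23955 symbols of the expression table, and all 9 were found and lay above the filter on low values. Cd53 had drawn attention through its difference between the genotypes in these same libraries, and the other 8 were added with the values known. The differences between genotypes are therefore given for these genes as a description, with no test. The obese mice, on the C57BL/6 background, carried the db allele of the leptin receptor on both chromosomes (db/db) and so lack a working long form of that receptor in every tissue, and WT littermates were the controls. Marrow of long bones and hips was taken at 4 months of age, and 20000 HSCs per library were sorted as cells with Sca-1, c-Kit and CD150 but without CD48 or lineage markers. Each of 3 independent experiments gave 1 db/db and 1 WT library, so n = 3 per genotype, and the labels do not say how many mice went into a library. With nothing more said about the source of a library, the spread between replicates may be partly technical. Values are TPM, a relative level scaled to the same total in each library and corrected for transcript length, so that levels of different genes can be set side by side.

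Tetraspanins are small proteins that span the cell membrane several times and expose a large and a small loop outside the cell. They gather integrins, immune receptors and proteases into patches of the membrane, and several of them steer cargo to late endosomes and to secreted vesicles. In blood-forming cells they are known as surface markers and as regulators of adhesion and of return to rest. Studies in mice have tied Cd81, Cd82 and Cd53 to the resting state of HSCs, and Tspan3 to the self-renewal of leukaemic cells. Cd37 and Cd53 are confined largely to leukocytes, whereas Cd9, Cd63, Cd81 and Cd151 are made in many tissues.

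The stretches around the transcription starts are shown for Cd53, Cd37 and Cd82, whose windows held the run GAGGAAGT, with Cd81 beside them as the most abundant of the 9. As TPM all of these, Cd81 included, were lowest in the same library, WT replicate 2, as given further down. Cd81 was at 788.47 TPM there and at 788.88 TPM in WT replicate 1. After the scaling described below, the 3 with the run were still lowest in WT replicate 2 and Cd81 was highest in it. Cd9, which lacks the run, was also lowest in it on that scale. A link between the run and these levels was not tested. All 9 genes were matched in RefSeq promoter windows (build GRCm38.p6, 250 bases before to 50 after each annotated start), with 13 windows in all because Cd82 has 4 and Cd151 has 2. The stretches run from 120 bases before to 30 after the start for Cd53 at chr3:106790120-106790269 (minus strand), Cd37 at chr7:45238810-45238959 (minus strand) and Cd81 at chr7:143052630-143052779 (plus strand). For the Cd82 start numbered window 3, at chr2:93461952-93462101 (minus strand), the stretch runs from 250 to 101 bases before the start, where the run lies. Capitals mark CpG dinucleotides and the letters GAGGAAGT, a match to the purine-rich core bound by ETS factors, which read ACTTCCTC on the other strand.
Cd53: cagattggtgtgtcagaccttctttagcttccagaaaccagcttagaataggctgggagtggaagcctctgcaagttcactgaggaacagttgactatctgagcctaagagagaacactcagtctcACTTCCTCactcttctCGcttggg
Cd37: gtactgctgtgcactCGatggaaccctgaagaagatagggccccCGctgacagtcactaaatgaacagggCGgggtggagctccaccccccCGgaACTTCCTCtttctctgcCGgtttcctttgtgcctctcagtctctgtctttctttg
Cd82: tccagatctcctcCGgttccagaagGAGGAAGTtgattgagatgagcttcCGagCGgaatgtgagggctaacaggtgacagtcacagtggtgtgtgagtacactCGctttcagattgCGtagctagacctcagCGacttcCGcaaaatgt
Cd81: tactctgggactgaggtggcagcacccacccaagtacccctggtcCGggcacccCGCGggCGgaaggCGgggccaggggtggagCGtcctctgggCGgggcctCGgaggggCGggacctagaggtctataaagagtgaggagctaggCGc

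The run GAGGAAGT, searched on both strands, was present in windows of 3 of the 9 genes, namely Cd53 (first base at 7 from the start), Cd37 (at -25) and Cd82 window 3 (at -225). It was present in a window of 3.69% of the 27025 genes with a window, and of 3.85% of those that passed the filter, the tested genes. By windows it was present in 3 of 13 for these genes and in 3.2% of all 32851. The motif was picked after the windows had been read, and a match is not a binding site. The shorter core GAGGAA, which lies inside the longer run, was present in 5 of the 13 windows and in 28.3% of all windows. Cd53 and Tspan32 had CpG-poor windows, with 4 and 2 CpG dinucleotides, against a median of 7 over all windows. Cd63 had 6 and Cd37 had 8. The windows of Cd81, Cd151, Tspan3 and Cd9 with the most CpG held 23, 20, 19 and 18, and that of Cd82 held 16. Of the 9 genes, 5 thus had a window with at least 15 CpG dinucleotides, and 4 had none above 8. The genes on chromosome 7 are Cd37, Cd151, Tspan32 and Cd81, and in RefSeq Tspan32 is the neighbour of Cd81.

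The libraries differed in ways that touch these genes. Read depth is unknown, because TPM keeps none, and between 13314 and 13810 symbols were above 0. The median-of-ratios size factor, which measures how far the typical gene of a library lies above its mean over libraries, was 0.915, 1.13 and 1.23 in db/db replicates 1, 2 and 3, against 0.914, 0.815 and 1.14 in the WT libraries. The median log2 difference of all genes, db/db minus WT, was 0.18 as deposited and 0.00 once the TPM were divided by these factors. Of the genes that define the gate, Slamf1, which encodes CD150, was at 24.96 to 38.9 TPM in db/db and 11.9 to 24.0 TPM in WT libraries, and Cd48 was at 1.63 to 21.4 TPM and 1.09 to 5.35 TPM. Divided by the size factors, Slamf1 overlapped between the groups, with 20.3 in db/db replicate 3 against 26.3 in WT replicate 1. Kit was at 223.8 to 347 TPM in db/db and 164 to 349.5 TPM in WT, and Ly6a, which encodes Sca-1, was at 361 to 429 TPM and 308 to 463 TPM. Lepr was listed at 1.51, 2.44 and 2.04 TPM in db/db and 2.34, 2.93 and 2.79 TPM in WT libraries. Since the db allele is known for mis-splicing of one isoform, the total over isoforms does not check the genotype.

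Of the 9 genes, Cd53 differed most between the genotypes. It was at 38.1, 74.8 and 48.9 TPM in db/db replicates 1, 2 and 3, against 23.7, 6.16 and 18.7 TPM in the WT libraries of the same experiments. Every db/db library lay above every WT library, and the gap between the groups lay between db/db replicate 1 and WT replicate 1, which come from the same experiment. The means were 54.0 ± 18.9 TPM in db/db and 16.2 ± 9.05 TPM in WT HSCs (SD, n = 3 each), a ratio of means of 3.33. The difference in log2(TPM + 1), a scale that shrinks changes of low genes, was 1.80 (SE 0.42), and 0.66, 3.40 and 1.34 within experiments 1, 2 and 3. Every SE given here is moderated, which means drawn toward the spread of genes of like level. For Cd53, which varied more than most such genes, this makes the SE smaller. The value of experiment 2 joins the highest and the lowest library of the series for Cd53. Without WT replicate 2 the log2 difference was 1.26, the lowest over the alternatives run. After median-of-ratios scaling the levels were 41.6, 66.1 and 39.8 in db/db and 26.0, 7.56 and 16.4 in WT libraries, still without overlap, with a ratio of means of 2.96.

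**Figure D1:**
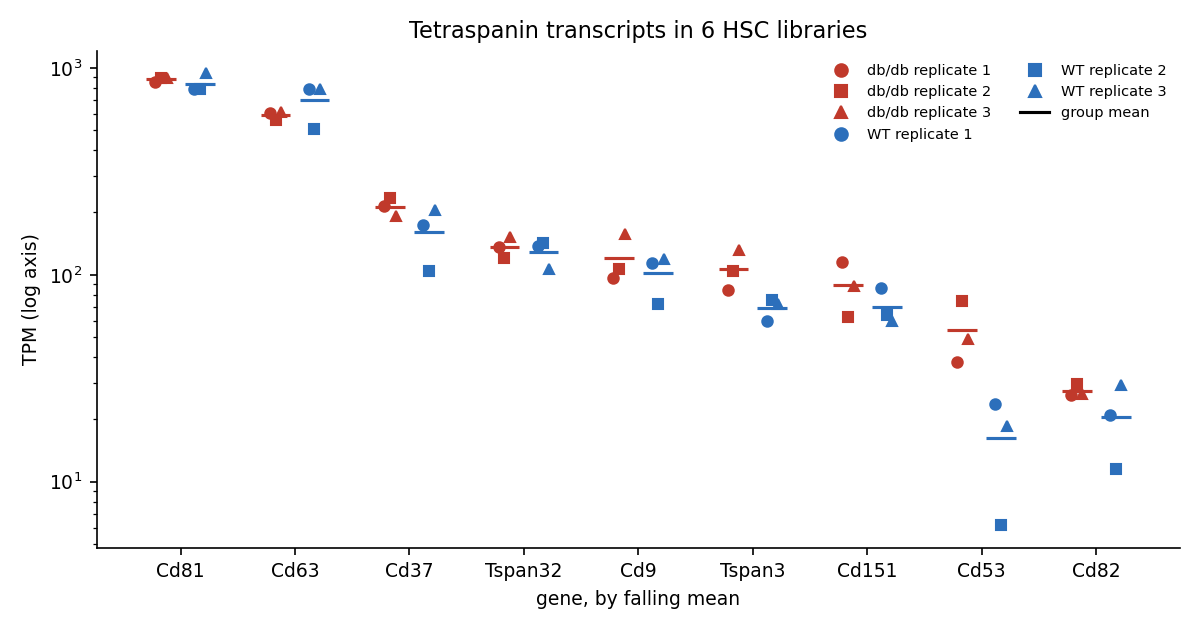
Level in TPM (log axis) of the 9 tetraspanin genes in the 3 db/db and 3 WT libraries, with horizontal bars for group means. The Cd53 points of db/db libraries, from 38.1 to 74.8 TPM, lie above those of WT libraries, from 6.16 to 23.7 TPM, whereas the groups overlap for every other gene but Tspan3.

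Cd53 also varied more between libraries of one genotype than most genes of its level. Its SD within genotypes was 0.75 on the log2(TPM + 1) scale, at or above that of 95.6% of the 4004 genes with a mean within 2-fold of its own, whose median SD was 0.41. The spread was wider in WT (SD 0.95) than in db/db libraries (SD 0.48). Cd81, by contrast, had an SD within genotypes of 0.11, and 9.03% of 144 genes of like level had an SD as small. Tspan32 (SD 0.20, with 14.6% of like genes at or below) and Tspan3 (SD 0.26, with 25.5%) were also among the steadier genes. The remaining 5 genes lay between 46.0% and 68.4% in this measure.

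Cd37, found mainly on leukocytes and a regulator of B cell function, was at 214, 234 and 192 TPM in db/db libraries against 174, 104 and 206 TPM in WT libraries. The groups overlapped, since WT replicate 3 lay above db/db replicate 3. Its log2 difference was 0.45 (SE 0.27), and 0.30, 1.16 and -0.10 within the experiments. Tspan32, a tetraspanin of blood cells also known as Tssc6, was at 136, 121 and 151 TPM in db/db against 138, 142 and 107 TPM in WT. Its log2 difference of 0.08 (SE 0.26) was higher in db/db in 1 of 3 experiments, and it was -0.11 after median-of-ratios scaling. Cd82, also known as Kai1 and studied as a suppressor of metastasis, was at 26.2, 29.7 and 26.7 TPM in db/db against 21.1, 11.6 and 29.2 TPM in WT. All 3 db/db libraries were close together, and WT replicate 3 reached the same level. The log2 difference of Cd82 was 0.49 (SE 0.37), and it was 1.29 in experiment 2 but 0.30 and -0.13 in experiments 1 and 3.

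Cd53, Cd37 and Cd82 were each highest in db/db replicate 2 and lowest in WT replicate 2 on the TPM scale, as were 9.41% of the 11931 tested genes. After median-of-ratios scaling all 3 were still lowest in WT replicate 2, but Cd37 and Cd82 were highest in db/db replicate 1. Cd9, Cd63 and Cd81 were also lowest in WT replicate 2, so 6 of the 9 genes were, against 34.1% of tested genes. WT replicate 2 had the lowest size factor of the 6 libraries. After scaling 4 of the 9 (Cd53, Cd9, Cd37 and Cd82) were lowest in it, against 18.2% of tested genes, and Cd81 was highest in it.

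Of the widely made tetraspanins, Tspan3 was at 84.1, 104 and 132 TPM in db/db libraries against 59.8, 75.4 and 71.9 TPM in WT libraries. The groups did not overlap, and db/db was higher in all 3 experiments, by 0.49, 0.46 and 0.86 on the log2(TPM + 1) scale (fitted difference 0.60, SE 0.28). After median-of-ratios scaling the groups overlapped, because WT replicate 2 stood at 92.5 against 92.0, 92.0 and 107 in db/db libraries. Tspan3 was thus the other gene besides Cd53 whose groups stood apart on the TPM scale, which makes 2 of 9 higher in db/db against 7.85% of tested genes. None of the 9 stood apart as lower, against 2.32% of tested genes. Since the genes were chosen with this contrast in view, nothing is read from these counts.

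Cd151, a partner of laminin-binding integrins, was at 115, 62.4 and 88.6 TPM in db/db libraries against 86.1, 64.1 and 59.7 TPM in WT libraries. Db/db replicate 2 lay within the WT range, and the log2 difference was 0.31 (SE 0.30). Cd9, which associates with integrins and is abundant on platelets, was at 96.6, 106 and 157 TPM in db/db against 114, 72.4 and 119.1 TPM in WT. Its log2 difference was 0.23 (SE 0.29), with -0.24, 0.54 and 0.39 within experiments 1, 2 and 3 and overlapping groups. For both genes the sign differed between experiments.

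Cd81 and Cd63 were the most abundant tetraspanins in both genotypes. Cd81, first known as a target of antibodies that stop lymphoma growth, was at 852, 891 and 893 TPM in db/db libraries against 789, 788 and 940.4 TPM in WT libraries. Its log2 difference was 0.07 (SE 0.21), and it was -0.12 after median-of-ratios scaling. Cd63, a tetraspanin of late endosomes and secreted vesicles, was at 606, 561 and 614 TPM in db/db against 786, 507 and 793 TPM in WT. It was the 1 gene of the 9 with a negative fitted difference, of -0.20 (SE 0.23), with -0.37, 0.15 and -0.37 within experiments 1, 2 and 3. As TPM the db/db levels of Cd63 lay within the WT range, which was wide. After median-of-ratios scaling they were 663, 496 and 500 against 861, 622 and 697 in WT libraries. The groups still overlapped, and the log2 difference was -0.39.

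**Figure D2:**
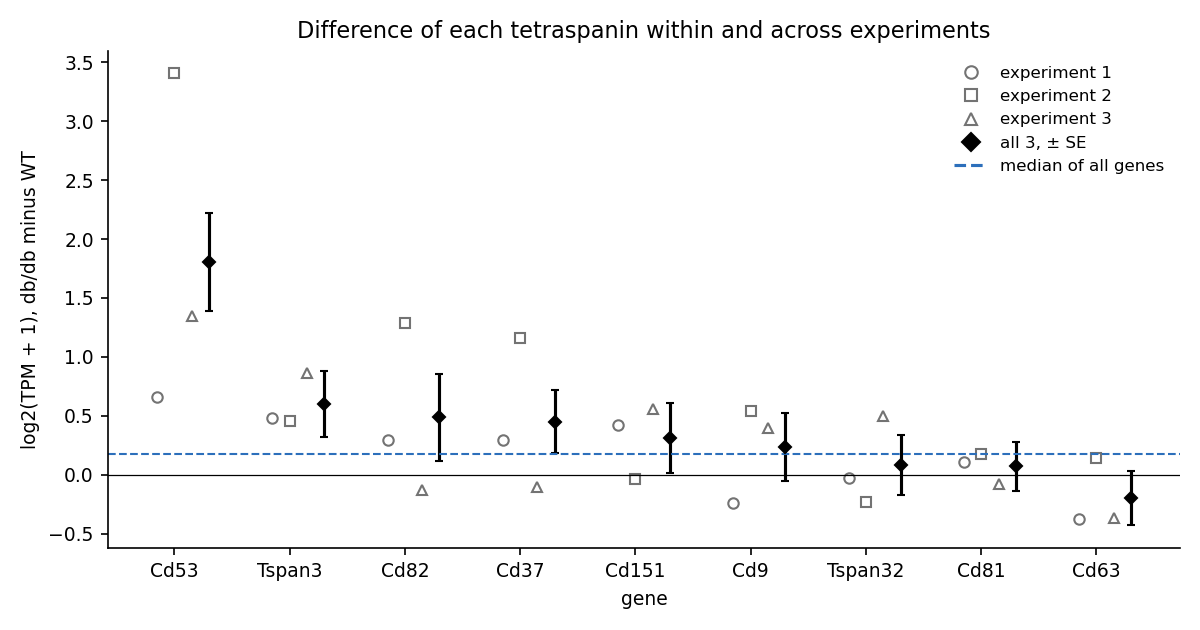
Difference in log2(TPM + 1), db/db minus WT, of each tetraspanin within experiments 1, 2 and 3 (open symbols) and over all libraries (diamonds, with moderated SE). Cd53 is at 1.80 and Tspan3 at 0.60, the other 7 lie between -0.20 and 0.49, and the dashed line marks the median of all genes at 0.18.

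The summed level of the 9 genes was 2219 ± 73.2 TPM in db/db and 2103 ± 297 TPM in WT HSCs (SD, n = 3 each), with overlapping groups. Its share of all TPM was 0.217%, 0.218% and 0.230% in db/db libraries, against 0.219%, 0.177% and 0.234% in WT libraries. The make-up of this sum differed more than its size. Cd81 and Cd63 together took 67.2%, 66.5% and 65.4% of it in db/db libraries, against 71.8%, 73.1% and 73.9% in WT libraries, without overlap. Cd53 took 1.76%, 3.43% and 2.12% in db/db against 1.08%, 0.348% and 0.796% in WT. These shares follow from the same values as the differences above and are no separate evidence.

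**Figure D3:**
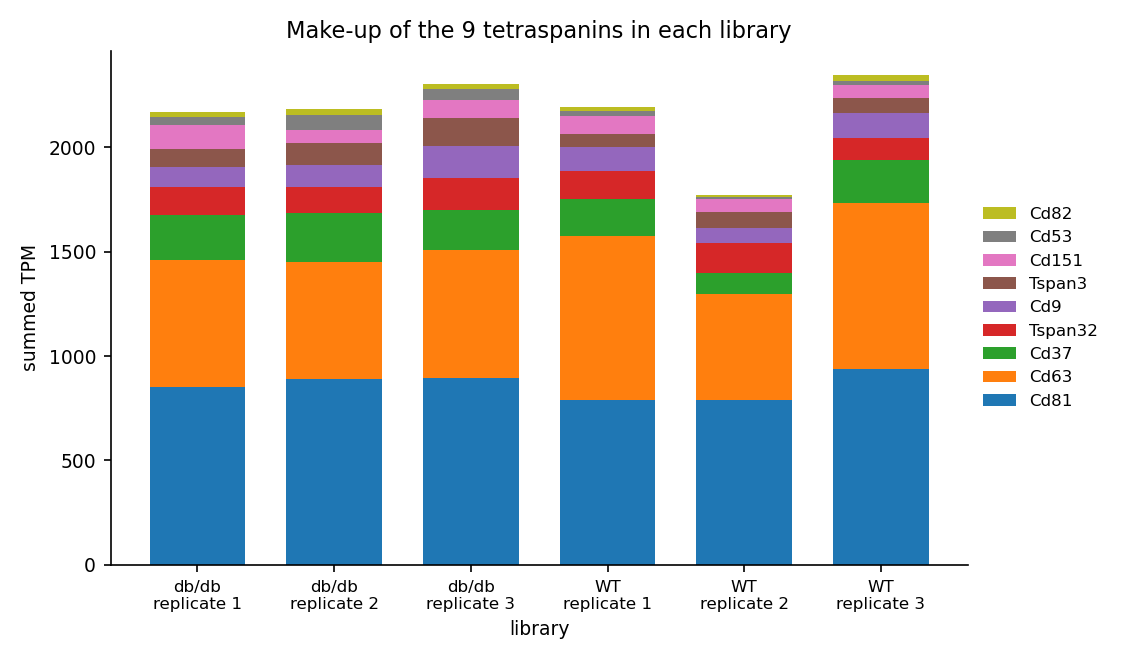
Summed TPM of the 9 tetraspanins in each library, stacked by gene. Cd81 and Cd63 take 65.4% to 67.2% of the sum in db/db libraries and 71.8% to 73.9% in WT libraries, and WT replicate 2 has the lowest sum, of 1772 TPM.

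By mean level over all libraries the 9 genes ran in the order Cd81, Cd63, Cd37, Tspan32, Cd9, Tspan3, Cd151, Cd53 and Cd82. Cd63 lay above Cd37 in every library, with separate ranges in both genotypes. Cd37 and Tspan32 had separate ranges in db/db and overlapped in WT. The ranges of Cd81 and Cd63 were separate in db/db and overlapped in WT, though Cd81 was the higher in 6 of 6 libraries. Tspan32, Cd9, Tspan3 and Cd151 each overlapped with their neighbour in this order in both genotypes. Cd53 changed its place, as its range overlapped with that of Cd151 in db/db but not in WT, and with that of Cd82 in WT but not in db/db. In WT HSCs Cd53 was the lowest of the 9 by its mean, and in db/db HSCs it lay above Cd82.

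The table held 22 further tetraspanins, of which 12 passed a filter at a mean of 1 TPM and 10 did not. Tspan10 and Tspan11 were listed at 0 in every library, and no gene under the filter exceeded 3.42 TPM in any library. Tspan13 was the most abundant of the 12, at 226 ± 30.9 TPM in db/db and 209.6 ± 61.6 TPM in WT HSCs (SD, n = 3 each), next in the family after Cd81 and Cd63. Tspan4, which is needed for migrasomes, was at 92.6 ± 5.46 TPM in db/db and 112 ± 25.8 TPM in WT, Tspan31 at 98.4 ± 6.17 and 96.1 ± 37.8 TPM, and Tspan14 at 99.5 ± 17.2 and 80.8 ± 17.6 TPM. In WT HSCs Cd53 ranked 15 of the 31 tetraspanins by mean level, below Tspan5 and Tspan6, and in db/db HSCs it ranked 12, above both.

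**Figure D4:**
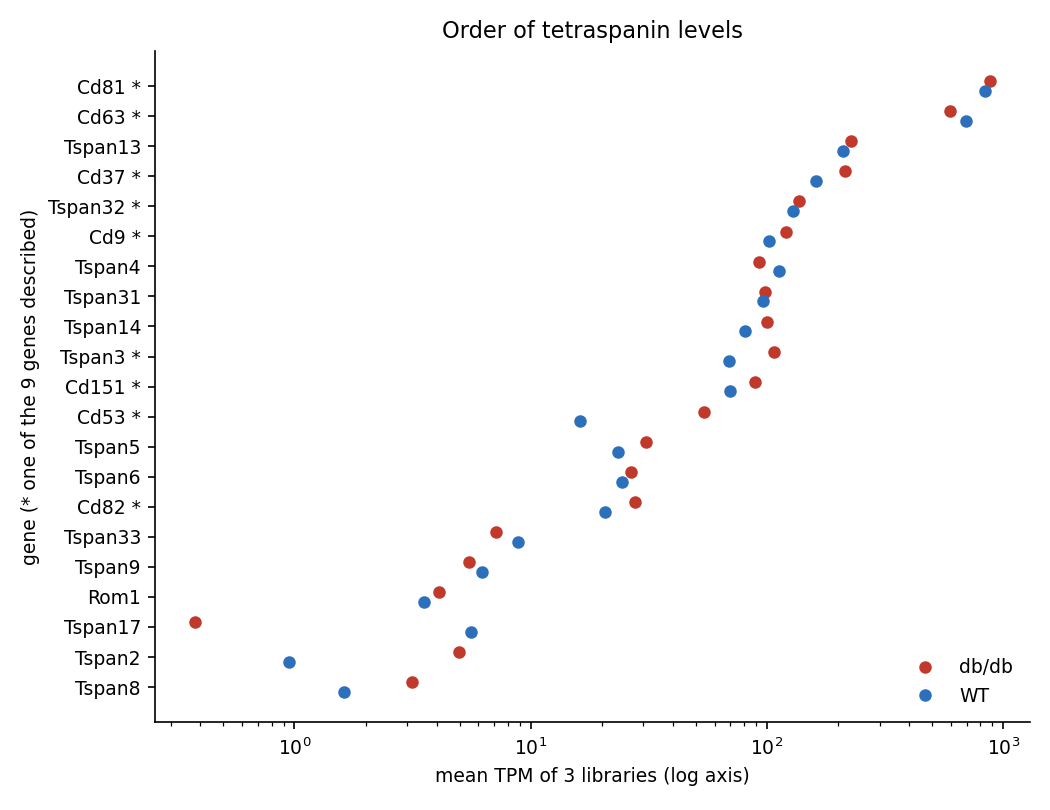
Mean TPM (log axis) of the 21 tetraspanins that passed the filter, in db/db and WT libraries (n = 3 each). Cd53 is at 54.0 TPM in db/db and 16.2 TPM in WT, and Tspan17 at 0.380 and 5.58 TPM stands apart in the other direction.

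None of these 12 genes passed over all genes in limma at a Benjamini-Hochberg adjusted p under 0.05, against 0.0335% of the 11931 tested genes as higher and 0% as lower. With the experiment as a replicate block the count over all tested genes was 4 higher and 2 lower, and still none of the 12. At an unadjusted p under 0.05, 1 of the 12 was higher (Tspan2) and 1 lower (Tspan17), where 4.1% of tested genes were higher and 1.25% lower, or 489 and 149 genes, against 297 and 355 after median-of-ratios scaling. Tspan17, one of the tetraspanins that escort the protease Adam10 to the cell surface, was listed at 0.480, 0 and 0.660 TPM in db/db libraries against 11.3, 4.04 and 1.40 TPM in WT libraries. The groups did not overlap, and the log2 difference was -1.97 (SE 0.63; limma adjusted p = 0.607). Tspan2 was at 0.990, 8.82 and 5.13 TPM in db/db against 0.580, 1.42 and 0.840 TPM in WT (log2 difference 1.36, SE 0.62; limma adjusted p = 0.919), and db/db replicate 1 lay within the WT range. The remaining 10 had log2 differences from -0.27 for Tspan33 to 0.37 for Tspan5. The median of the 12 was 0.13, against 0.18 over all tested genes, and after median-of-ratios scaling it was -0.05 against 0.00.

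Among proteins known to associate with tetraspanins, 22 of 28 listed genes passed the filter. None was called in limma with Benjamini-Hochberg adjustment, against 0.0335% of all tested genes as higher and 0% as lower. An unadjusted p under 0.05 was reached by 2 as higher and by 0 as lower, against 4.1% and 1.25% of all tested genes, and the median log2 difference was 0.37 against 0.18 over all tested genes. Adam10, the protease carried by Tspan5, Tspan14, Tspan17 and Tspan33, was at 26.8, 69.1 and 48.9 TPM in db/db libraries against 26.9, 21.9 and 28.0 TPM in WT libraries, and db/db replicate 1 lay within the WT range (log2 difference 0.80, SE 0.35; limma adjusted p = 0.910). Epcam, an adhesion protein, was at 4.64, 5.36 and 1.10 TPM in db/db against 0.240, 0 and 0.920 TPM in WT, without overlap (limma adjusted p = 0.804). The integrin chain Itga2b was at 29.3, 39.2 and 28.6 TPM in db/db against 17.2, 20.8 and 23.0 TPM in WT, without overlap as TPM but with overlap after median-of-ratios scaling (limma adjusted p = 0.919). Kit, the most abundant of the list, has its levels above. Partners of Cd53 described in lymphocytes were picked here after their values were seen. Il7r and Cd2 were listed at 0 in all 6 libraries, and Ptprc, which encodes CD45, was at 18.7, 44.7 and 25.6 TPM in db/db against 29.8, 25.7 and 19.8 TPM in WT. The ranges of Ptprc overlapped, unlike those of Cd53.

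Of 18 listed genes of exosomes and late endosomes, the compartment of Cd63, 17 passed the filter. None was called in limma with Benjamini-Hochberg adjustment, against 0.0335% of all tested genes as higher and 0% as lower. An unadjusted p under 0.05 was reached by 1 as higher and by 0 as lower, against 4.1% and 1.25% of all tested genes, and the list median of 0.20 stood beside 0.18 over all tested genes. That gene was Rab7, a GTPase of late endosomes and the most abundant of the list, at 281 to 475 TPM in db/db and 221 to 316 TPM in WT libraries (log2 difference 0.62, SE 0.25; limma adjusted p = 0.894). Sdcbp, an adaptor that binds Cd63, was at 265 to 339 TPM in db/db and 165 to 323 TPM in WT (0.44, SE 0.26; limma adjusted p = 0.919). Pdcd6ip, which encodes the adaptor Alix, was at 29.6 to 54.1 TPM and 23.8 to 35.9 TPM (0.58, SE 0.34; limma adjusted p = 0.919). As TPM all 3 of these genes had overlapping groups. After median-of-ratios scaling Sdcbp still overlapped, whereas Rab7 and Pdcd6ip were higher in db/db without overlap. Rab7 then stood at 307, 379 and 386 in db/db libraries against 242, 276 and 278 in WT libraries. On that scale Lamp1 and Rab11a, also of this list, were lower in db/db without overlap.

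Marker genes of other marrow cells were present beside Cd53. The 15 listed markers of progenitors outside the HSC gate summed to 815, 1206 and 867 TPM in db/db libraries against 698, 621 and 689 TPM in WT libraries, without overlap. Nkg7, Flt3 and Csf2rb were also without overlap as TPM. After median-of-ratios scaling Flt3 and Csf2rb stayed without overlap, whereas the groups of Nkg7 overlapped. The largest parts of the sum, however, were Cd27, Cd34 and Mpo, at means of 224, 192 and 138 TPM over all libraries, each with overlapping groups. On the TPM scale this sum ran in the same order over the 6 libraries as Cd53. After median-of-ratios scaling it was 891, 1066 and 706 in db/db against 764, 762 and 606 in WT libraries, so that the groups overlapped and WT replicate 3 was the lowest. Of 13 tested, none was called, against 0.0335% of all tested genes as higher and 0% as lower. At an unadjusted p under 0.05, 3 of the 13 were higher (Nkg7, Flt3 and Csf2rb), where 4.1% of all tested genes were. Their median log2 difference was 0.33, against 0.18 over all tested genes, and it was 0.99 without db/db replicate 3 and 0.99 with the filter raised to 5 TPM. Flt3, a receptor of multipotent progenitors, was at 18.4 to 29.6 TPM in db/db and 6.18 to 12.7 TPM in WT. The mean log2 value of 5 granule genes ran in another order. It was 8.49, 7.07 and 7.08 in db/db libraries against 8.71, 4.10 and 4.46 in WT libraries. Other granulocyte markers did not all share this order. Lcn2 was highest in db/db replicate 2 (221 TPM) and lowest in WT replicate 2 (8.1 TPM), as Cd53 was. Elane was also highest in db/db replicate 2 (123 TPM), but lowest in WT replicate 3 (7.83 TPM). Cd177 was highest in WT replicate 1 (18.8 TPM), as the mean of the granule genes was. Of 11 granulocyte markers tested, none was called, against the same 0.0335% and 0% of all tested genes. At an unadjusted p under 0.05, 8 of the 11 were higher, against 4.1% of all tested genes. Their median was 1.68, against 0.18 over all tested genes, and 3.26 without WT replicate 1, with sums of 1587 to 4026 TPM and 414 to 4654 TPM. The part of other cells in the level of Cd53 was not tested, and in such bulk libraries more cells of a type cannot be told apart from more RNA per cell.

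**Figure D5:**
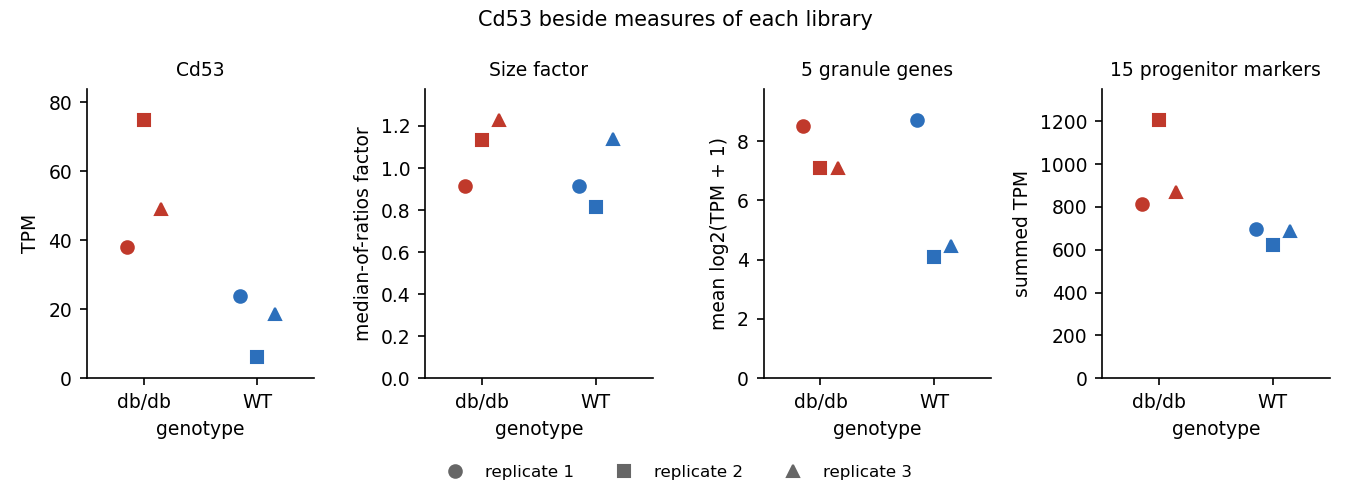
Cd53 in TPM, the median-of-ratios size factor, the mean log2(TPM + 1) of 5 granule genes and the summed TPM of 15 progenitor markers in each db/db and WT library. Cd53 and the progenitor sum, both as TPM, are highest in db/db replicate 2 and lowest in WT replicate 2 (after scaling the lowest progenitor sum is in WT replicate 3), whereas the granule genes are high in replicate 1 of either genotype.

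The counts at an unadjusted p under 0.05 that follow stand against 4.1% of all tested genes as higher and 1.25% as lower. The counts of genes called stand against 0.0335% as higher and 0% as lower. B cell markers summed to 29.1 to 68.5 TPM in db/db and 33.1 to 61.2 TPM in WT libraries, most of it from Cd79b, a chain of the B cell receptor complex, at 59.9, 38.8 and 28.8 TPM in db/db against 60.9, 42.5 and 32.7 TPM in WT. Of the 9 listed 2 were tested, neither with an unadjusted p under 0.05, and Ebf1, Pax5, Igll1 and Ms4a1 were listed at 0 in every library. T and NK cell markers summed to 55.5 to 82.8 TPM in db/db and 30.01 to 35.7 TPM in WT libraries. Of 12 listed 4 were tested, 2 of them (Thy1 and Cd4) higher at an unadjusted p under 0.05. In every library 6 were at 0, Cd3e, Cd3g, Ncr1 and Gzma among them. The largest part of each db/db sum was Thy1, at 54.3, 34.7 and 32.0 TPM against 17.4, 16.5 and 7.86 TPM in WT. The groups of Cd4, Lck and Klrb1c overlapped. Monocyte and macrophage markers summed to 84.8 to 141 TPM in db/db and 41.0 to 94.9 TPM in WT, with 5 of 12 tested and 2 higher at an unadjusted p under 0.05. Erythroid markers summed to 317 to 1404 TPM in db/db and 85.8 to 199.6 TPM in WT. The largest part of each db/db sum was Hbb-b2, at 1348, 513 and 256 TPM against 89.3, 79.0 and 55.1 TPM in WT. Klf1 was also without overlap as TPM, whereas the groups of Hba-a1, Hbb-b1, Car1 and Epor overlapped. Of 6 tested, 1 was called as higher, the globin gene Hbb-b2 (log2 difference 2.93, SE 0.39; limma adjusted p = 0.000688). It was called in 8 of 15 alternatives, with adjusted p from 4.82e-05 to 0.890, and lost the call without db/db replicate 2 (0.149) or WT replicate 3 (0.0882), after either scaling (0.360 and 0.198), without a filter (0.890), without a trend (0.398) and with the robust prior (0.503). Megakaryocyte markers summed to 513 to 809 TPM and 417 to 691 TPM, with 8 tested, of which Gp1ba was higher and Treml1 lower at an unadjusted p under 0.05. Mast cell, basophil and eosinophil markers summed to 5.01 to 16.7 TPM and 0.980 to 9.27 TPM, with 2 tested and 1 higher at an unadjusted p under 0.05. That gene, Cpa3, a protease of mast cell granules, was at 14.95, 11.4 and 5.01 TPM in db/db against 1.88, 2.41 and 0.670 TPM in WT (limma adjusted p = 0.334). The 14 HSC identity genes summed to 2302 to 2649 TPM in db/db and 1592 to 2717 TPM in WT, none was called, and 1 (Slamf1) was higher at an unadjusted p under 0.05. Apart from Hbb-b2 no marker of these lists was called.

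The genes whose level over the 6 libraries was most like that of Cd53 were taken from 3436 genes whose mean reached 5 TPM and which had an SD of at least 0.5 on the log2(TPM + 1) scale. They were Lrp12 (Pearson r = 0.98), A930005H10Rik (0.98), Tek (0.98), Hemgn (0.98) and Vsig10 (0.97). The 6 points of each r are the same libraries, 3 per genotype, and r is given as a description. Tek, which encodes the angiopoietin receptor of HSCs and endothelium, was at 19.7, 25.8 and 23.1 TPM in db/db libraries against 19.3, 8.89 and 15.96 TPM in WT libraries. Hemgn, a nuclear protein gene of blood cells, was at 33.8, 56.4 and 47.2 TPM in db/db against 29.6, 18.5 and 29.4 TPM in WT. On the TPM scale each of the 5 was highest in db/db replicate 2 and lowest in WT replicate 2, the same libraries as for Cd53. After median-of-ratios scaling 4 of the 5 were, against 4.66% of tested genes. Picking genes by r with Cd53 favours this pattern and a higher level in db/db, so neither is separate evidence. The ratios of means of the 5 ran from 1.55 for Tek to 3.27 for Vsig10, against 3.33 for Cd53.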

How the data were processed

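Amplified RNA of sorted HSCs went into stranded mRNA libraries for paired reads of 75 nucleotides, per the labels' protocols. Per the submitters' processing notes, RSEM and Bowtie2 were used by the authors on mm9, and the deposited table gives TPM for each gene symbol. Versions, settings, the annotation and the use of strand in counting are not given in the sources used here. Depth is unknown, so each SD is a spread between libraries. Each SE of a log2 difference is the moderated SE of the limma fit, not the spread of that gene alone. The table held 23955 symbols, 8489 at 0 in every library. No library repeated another (identical values in up to 0.654% of tested genes per pair).

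The comparison of db/db with WT used limma 3.58.1 (R 4.3.3) with genotype as its sole term, on log2(TPM + 1) of the 11931 genes whose mean reached 1 TPM, moderation with a trend and Benjamini-Hochberg adjustment over all of them. It was tested on simulated data. A gene was called at an adjusted p under 0.05. The genes, lists, motifs and tests were chosen with earlier results of these data known. Named from each list were up to 3 genes of smallest p and the one of highest mean. Other genes of a list were named after their values were seen. Experiment numbers in the labels pair the libraries. Deviations from group means correlated at 0.04, 0.01 and 0.16 within experiments.

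Tried beside this were other pseudocounts (0.1 and 0.5), filters (none, or 5 TPM), scalings (median-of-ratios and quantile) and priors (no trend, or robust), the experiment as a replicate block, and leaving out each library in turn.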

Additional observations from a re-analysis of the deposited data

How the results depend on the processing

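The log2 difference of Cd53, 1.80, ran from 1.26 without WT replicate 2 to 2.16 without WT replicate 1 over the 10 alternatives that could move it. Its sign was kept, but its groups did not overlap as TPM. Leaving out a library or changing the pseudocount therefore could not turn the sign of Cd53, nor that of Tspan3. Only the scalings could, and Cd53 stood at 1.62 after either. The differences of Cd9, Cd37, Cd63, Cd82, Cd151 and Tspan3 also kept their sign in the 10 alternatives. That of Cd9 came down to 0.01, with WT replicate 2 left out. The filters and the block leave a tested gene's difference as it is. The difference of Cd81 was -0.12 after median-of-ratios scaling and -0.05 after quantile normalization. That of Tspan32 was -0.11 and -0.04 under these, and -0.05 without WT replicate 3. Once the median of all genes was subtracted, Cd9 stood at -0.07 with WT replicate 2 left out. It stood at -0.08 when db/db replicate 3 was dropped. Cd151 then stood at -0.20 on leaving out db/db replicate 1 and at -0.09 on leaving out WT replicate 3. Cd53, Cd37, Cd63, Cd82 and Tspan3 kept their sign after this subtraction as well. Of the 12 further tetraspanins none was called in any of 15 alternatives, in which at most 15 of all genes were called higher and 2 lower.

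Over all genes, 4 were called higher and 0 lower in db/db. The count called higher was 0 without a filter, 1 after median-of-ratios scaling, 1 after quantile normalization, 0 without a trend, 1 with the robust prior, and from 0 (without db/db replicate 2) to 15 (without WT replicate 1) when a library was left out, with 2 without WT replicate 3. The count called lower was 1 with the filter at 5 TPM, 2 with the replicate block, and 0 to 1 when a library was left out. The block added no call among the tetraspanins. The unadjusted p fell under 0.05 for 489 genes as higher and 149 as lower, against 297 and 355 after median-of-ratios scaling. Depth is unknown, so low levels such as those of Tspan17 and Tspan2 carry no counting error here.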
